A study of Phalaenopsis amabilis with 15 samples.

Results

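The genes described here are those that make ethylene, perceive it and pass on its signal, with the ethylene response factors (ERF), a family of DNA-binding proteins named after the hormone. They were taken by words in the protein annotation, as every locus whose best protein match names ethylene or 1-aminocyclopropane-1-carboxylate (ACC). AP2-like and RAP2-7 entries and 1 other locus were left out. This gave 114 of the 21144 loci in the table, of which 76 are ERF factors, 6 ACC synthases, 8 ACC oxidases, 3 receptors, 7 signalling proteins and 5 ACC oxidase homologs. A further locus is matched to EER5, and 8 only hold the letters inside the word methylene. RNA was sequenced from pooled young leaves of the moth orchid Phalaenopsis amabilis, in 5 groups of 3 libraries with 3 plants each. SD_40d and SD_20d leaves had 8 h of light and 16 h of dark for 40 and 20 days, and LD_40d and LD_20d leaves had 16 h of light and 8 h of dark for the same times. All 4 treated groups were kept at 25 °C in the day and 18 °C in the night. Control leaves came from day 0 and from plants with 12 h of light, 28 °C days and 25 °C nights. Leaf age, day length and temperature therefore cannot be told apart in any comparison with the control. Below, the age of a treated group means its days of treatment. Between 20 and 40 days, leaf age and length of exposure cannot be told apart. Relative humidity was 70% in all 5 groups. Photoperiod is tested by SD against LD of the same age, with temperatures alike. No label states at which hour leaves were cut, and reads of P. amabilis were counted on loci of its relative P. equestris. Gene symbols below are those of the best protein match, which is from another species for each locus named.

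Ethylene is a gaseous hormone that plants make from S-adenosylmethionine (SAM). ACC synthase forms the precursor ACC, and ACC oxidase turns it into ethylene. In Arabidopsis and rice, receptors of the ETR and ERS kind keep the pathway off through the kinase CTR1 until they bind the hormone, and EIN2 and factors of the EIN3 family then carry the signal to the nucleus, where ERF genes are among the targets. Many ERF factors also answer to wounding, drought, cold or low oxygen, and several act as repressors.

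Library totals ran from 11246777 to 14637388 counts, and the members took 0.2813% to 0.4332% of them. Of the 114 members, 14 had no count in any library and 69 passed the filter on low counts among 16700 genes tested. Of the 69, 7 passed only through the control libraries, since fewer than 3 treated libraries reached the limit of the filter. By this choice such members had most treated libraries under the limit, which favours falls against the control. They are the ACC oxidase LOC110018547 and the ERF factors ERF109 LOC110021501, ERF5 LOC110022820, ERN1 LOC110024542, ERF061 LOC110027443, ERF9 LOC110030982 and ERF021 LOC110033992. Counts over tested members therefore describe those members only. Values below are CPM, read counts relative to the size of the library after TMM scaling, for replicates 1, 2 and 3 in that order. Fold changes are log2 values ± standard error from edgeR's quasi-likelihood test, with 3 libraries in each group and Benjamini-Hochberg adjustment over all genes tested. A gene is called, and said to rise or fall, at an adjusted p under 0.05. The labels do not say whether the libraries of a group came from separate batches of plants, so p-values measure only the spread between these libraries. Replicate 1 of SD_40d was most often at either end of its group. It was the lowest of its group for 40.4% of all genes tested and the highest for 42.1%.

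Against the control, more members fell than rose at both ages. At 40 days 8 rose and 20 fell in SD_40d (38.3% of all genes were called, 18.8% higher and 19.5% lower), and 13 rose and 18 fell in LD_40d (27.5% called, 13.9% higher and 13.6% lower). At 20 days 4 rose and 30 fell in SD_20d (35.1% called, 17.2% higher and 17.9% lower), and 6 rose and 28 fell in LD_20d (24.0% called, 11.4% higher and 12.6% lower). As shares of the 69 tested, 40.6% were called in SD_40d, 44.9% in LD_40d, 49.3% in SD_20d and 49.3% in LD_20d, so the share in SD_40d was close to that of all genes. Among the falls, 6 in SD_40d, 3 in LD_40d, 5 in SD_20d and 5 in LD_20d are of the 7 members that passed the filter only through the control. Over the other 62 tested members 8 rose and 14 fell in SD_40d, 13 rose and 15 fell in LD_40d, 4 rose and 25 fell in SD_20d, and 6 rose and 23 fell in LD_20d. These 4 comparisons share the same control libraries. Of the 69 tested members 43 are ERF factors, and most of the falls lay among these. By share, 32.6% of the ERF factors fell in SD_40d and 25.6% in LD_40d, beside 29% and 26.1% of all 69. At 20 days 55.8% fell in SD_20d and 53.5% in LD_20d, beside 43.5% and 40.6% of all 69. In each group 2 falls were ACC oxidases. The receptors and signalling proteins had rises and no called fall, as the plot of fold changes by role shows. Without SD_40d replicate 2, the count in SD_40d dropped to 18 called, of which 7 rose and 11 fell.

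**Figure D1:**
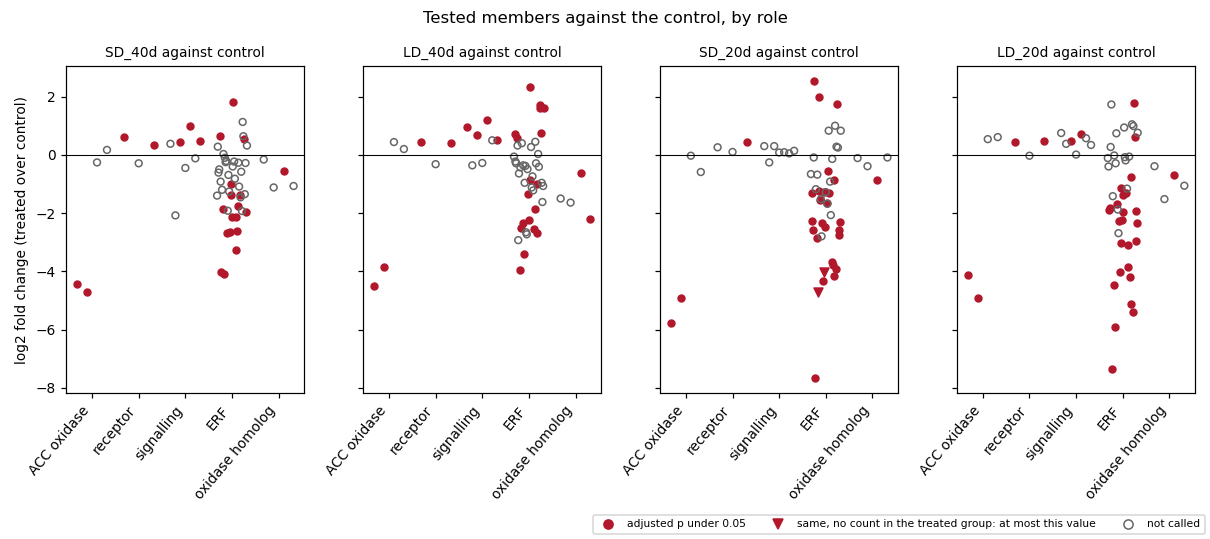
Log2 fold change of each tested member against the control, in 4 panels for SD_40d, LD_40d, SD_20d and LD_20d, with members grouped by role along the x axis. Filled red points passed an adjusted p under 0.05, red triangles are called members with no count in the treated group, drawn at the smallest fall their counts allow, and open points were not called. A pair of ACC oxidases lies at or below -3.85 in every panel, and receptor and signalling members that were called all lie above 0.

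Of the synthesis genes, the ACC synthases were close to absent from these leaves in every group. The 6 loci held 49 counts over all 15 libraries, with at most 5 for any locus in a library and at most 10 over the 6 together, so 0 of them could be tested, and 2 had no count at all. Among the 8 ACC oxidases, 4 passed the filter and 2 of these fell in every treated group. LOC110018548 (scaffold NW_018164466.1, 1388592 to 1390008, + strand), matched to the banana oxidase MAO1B, was the most abundant, with 51.2% of the summed FPKM of the 8 loci. It had 1.24, 0.366 and 2.14 CPM in SD_40d, 4.87, 0.947 and 1.23 CPM in LD_40d, 1.155, 0.571 and 1.57 CPM in SD_20d, 1.12, 1.02 and 1.17 CPM in LD_20d, against 22.6, 37.6 and 41.8 CPM in the control. The 12 treated libraries lay below the lowest control library by a wide margin, and LD_40d replicate 1 was the highest of them. Its mean CPM was 27.2-fold lower in SD_40d, 14.5-fold lower in LD_40d, 31.0-fold lower in SD_20d and 30.8-fold lower in LD_20d than in the control. The fitted log2 fold changes were -4.72 ± 0.61, -3.85 ± 0.58, -4.93 ± 0.62 and -4.93 ± 0.62 for the same groups (edgeR adjusted p = 0.000106 to 0.000402 over the 4). The locus next to it with the same match, LOC110018547, lies 23.2 kb away on the opposite strand (NW_018164466.1, 1413169 to 1414476, - strand). That neighbour had 0.0729, 0.457 and 0.295 CPM in SD_40d, 0.304, 0.172 and 0.273 CPM in LD_40d, 0.144, 0.0816 and 0.0712 CPM in SD_20d, 0.349, 0.273 and 0.367 CPM in LD_20d, against 7.50, 5.84 and 4.33 CPM in the control. It too was lower in all 12 treated libraries than in any control library, with log2 fold changes of -4.42 ± 0.46 in SD_40d, -4.49 ± 0.46 in LD_40d, -5.76 ± 0.52 in SD_20d and -4.12 ± 0.44 in LD_20d (edgeR adjusted p = 8.93e-06 to 3.51e-05). It had at most 5 counts in any treated library and passed the filter only through the control, so that it differed was set by that choice. Reads of near-identical copies may have been split between such loci by the authors' counting, so the share of each locus is uncertain.

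Added up per length over the 8 loci, ACC oxidase transcript came to 6.49 ± 1.004 FPKM in SD_40d, 8.36 ± 2.79 FPKM in LD_40d, 5.77 ± 1.20 FPKM in SD_20d and 9.11 ± 1.38 FPKM in LD_20d, against 40.3 ± 7.47 FPKM in the control (SD, n = 3 libraries each). The control sum ran from 31.9 to 46.1 FPKM over its libraries, and the highest treated library reached 11.1 FPKM. In pooled leaves, fewer cells that express a gene and less RNA per cell cannot be told apart.

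The 7 tested genes of SAM and methionine metabolism moved in both directions. They are SAM synthases, SAM decarboxylases and loci matched to a methylthioribulose dehydratase and enolase-phosphatase, so not all lie upstream of ACC. Against the control 4 rose and 1 fell in SD_40d, and 2 rose and 1 fell in LD_40d. At 20 days 2 rose and 1 fell in SD_20d, and 1 rose and 1 fell in LD_20d. The shares of all genes tested were 18.8%, 13.9%, 17.2% and 11.4% higher and 19.5%, 13.6%, 17.9% and 12.6% lower. SAM decarboxylase SAMDC4 LOC110031862, of the enzymes that take SAM towards polyamines, rose in all 4 groups, by 1.07 ± 0.29, 1.48 ± 0.29, 1.43 ± 0.29 and 1.80 ± 0.29 in that order (edgeR adjusted p = 0.000776 to 0.0112). The more abundant SAM decarboxylase LOC110023339 rose by 1.19 ± 0.32 in SD_20d against the control (edgeR adjusted p = 0.0116) and was lower in SD_40d than in SD_20d (-1.90 ± 0.33, adjusted p = 0.00106). The SAM decarboxylase LOC110038049 went the other way in SD_20d, where it fell (-0.99 ± 0.28, adjusted p = 0.0154), and rose in LD_40d (1.19 ± 0.28, adjusted p = 0.00712). It was also the 1 gene of the 7 called in the mean of SD against LD, lower under SD (-0.81 ± 0.20, adjusted p = 0.0364). SAM synthase LOC110031618 fell, with log2 changes of -0.54 ± 0.18 in SD_40d, -0.63 ± 0.18 in LD_40d and -0.54 ± 0.18 in LD_20d (adjusted p = 0.0205 to 0.0475).

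The 3 receptors and 7 signalling proteins were all tested, and they changed by far smaller steps than the 2 oxidases that fell. Against the control 5 of the 10 rose in SD_40d, 6 in LD_40d, 1 in SD_20d and 4 in LD_20d. No other of the 10 was called there. The shares of all genes tested called higher were 18.8%, 13.9%, 17.2% and 11.4% in that order. The SD_20d count, 10% of the 10, was not above that share. The median log2 change of the 10 was 0.36, 0.48, 0.12 and 0.45 in that order, beside -0.05 to 0.02 over all genes tested. The control was the group with the lowest mean for 6 of the 10, against 26% of all genes tested.

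ERS1 LOC110021328, an ethylene response sensor by its match in rice, had the most transcript of the 3 receptors, at 70.8% of their summed FPKM. It had 183, 209.7 and 197 CPM in SD_40d, 185, 185 and 163 CPM in LD_40d, 179, 145 and 144 CPM in SD_20d, 182, 176 and 168 CPM in LD_20d, against 124, 128 and 137 CPM in the control. The SD_40d, LD_40d and LD_20d libraries all lay above the control, and so did SD_20d by a narrower gap. ERS1 rose by 0.60 ± 0.10 in SD_40d, by 0.45 ± 0.10 in LD_40d and by 0.44 ± 0.10 in LD_20d (edgeR adjusted p = 0.0008 to 0.00861), and differed by 0.26 ± 0.10 in SD_20d (adjusted p = 0.0637). The receptor locus ETR2 LOC110024932 rose in all 4 treated groups, by 0.34 ± 0.10 in SD_40d, 0.41 ± 0.10 in LD_40d, 0.44 ± 0.10 in SD_20d and 0.47 ± 0.10 in LD_20d (adjusted p = 0.00473 to 0.0171), and each treated library, at 36.5 to 45.7 CPM, was above the control libraries at 28.1 to 33.7 CPM. In SD_40d that call was lost without SD_40d replicate 1, SD_40d replicate 3 or control replicate 2 (adjusted p up to 0.0844), and in LD_40d without control replicate 2 (adjusted p = 0.0515). The other ETR2 locus, LOC110024670, was not called against the control. It had 32.2, 31.8 and 38.0 CPM in SD_40d, against 44.2, 44.9 and 44.8 CPM in SD_20d, and fell in SD_40d, with a log2 change of -0.39 ± 0.12 (adjusted p = 0.0174), a call lost without SD_40d replicate 2 or SD_20d replicate 2 (adjusted p up to 0.0704).

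EIN2 LOC110038606, the membrane protein through which the signal passes in Arabidopsis and rice, had 299, 277 and 295 CPM in SD_40d, 299, 267 and 324 CPM in LD_40d, 246, 207 and 235 CPM in SD_20d, 289.7, 235 and 261 CPM in LD_20d, against 224, 178 and 219.6 CPM in the control. The 40-day libraries all lay above the control, while SD_20d overlapped it. EIN2 rose by 0.48 ± 0.12 in SD_40d and by 0.52 ± 0.12 in LD_40d (edgeR adjusted p = 0.00718 and 0.00693). The EIN3-like factor EIL1A LOC110026419 (scaffold NW_018164814.1, 523080 to 528946, - strand), matched to a rice activator of ethylene-responsive genes, changed most among those called. It had 253, 248 and 213 CPM in SD_40d, 297, 267 and 263 CPM in LD_40d, 153, 117 and 116 CPM in SD_20d, 250.2, 155 and 187 CPM in LD_20d, against 127, 109.7 and 127 CPM in the control. SD_20d overlapped the control, and the libraries of the other 3 groups all lay above it, with LD_40d highest. EIL1A LOC110026419 rose by 0.98 ± 0.16 in SD_40d, by 1.19 ± 0.16 in LD_40d and by 0.71 ± 0.16 in LD_20d (adjusted p = 0.000221 to 0.00707), which is 1.97-fold, 2.28-fold and 1.63-fold in mean CPM. In SD_20d it differed from the control by 0.09 ± 0.16 (adjusted p = 0.705).

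Its relative EIL1A LOC110028069 had 103, 109.7 and 82.96 CPM in SD_40d, 114, 139 and 200.3 CPM in LD_40d, 116, 107 and 108 CPM in SD_20d, 186, 149.8 and 139.9 CPM in LD_20d, against 91.4, 85.0 and 144 CPM in the control. Every treated group overlapped the control, and it was not called. ETO1 LOC110025779, whose Arabidopsis match marks ACC synthase for breakdown, had 74.2, 78.8 and 66.6 CPM in SD_40d, 93.6, 85.7 and 76.8 CPM in LD_40d, 64.7, 66.7 and 66.4 CPM in SD_20d, 80.9, 66.5 and 79.0 CPM in LD_20d, against 49.5, 59.9 and 51.6 CPM in the control. All 12 treated libraries lay above the 3 control libraries. ETO1 rose by 0.45 ± 0.11 in SD_40d, by 0.67 ± 0.11 in LD_40d and by 0.49 ± 0.11 in LD_20d (edgeR adjusted p = 0.00081 to 0.00697), and differed by 0.30 ± 0.11 in SD_20d (adjusted p = 0.053). RTE1 LOC110017971, which in Arabidopsis acts with a receptor, was called only in LD_40d (0.96 ± 0.30, adjusted p = 0.0283), and not without LD_40d replicate 3, control replicate 1 or control replicate 3 (adjusted p up to 0.126). EIL3 LOC110025957 and EIL1 LOC110020815 were not called against the control.

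**Figure D2:**
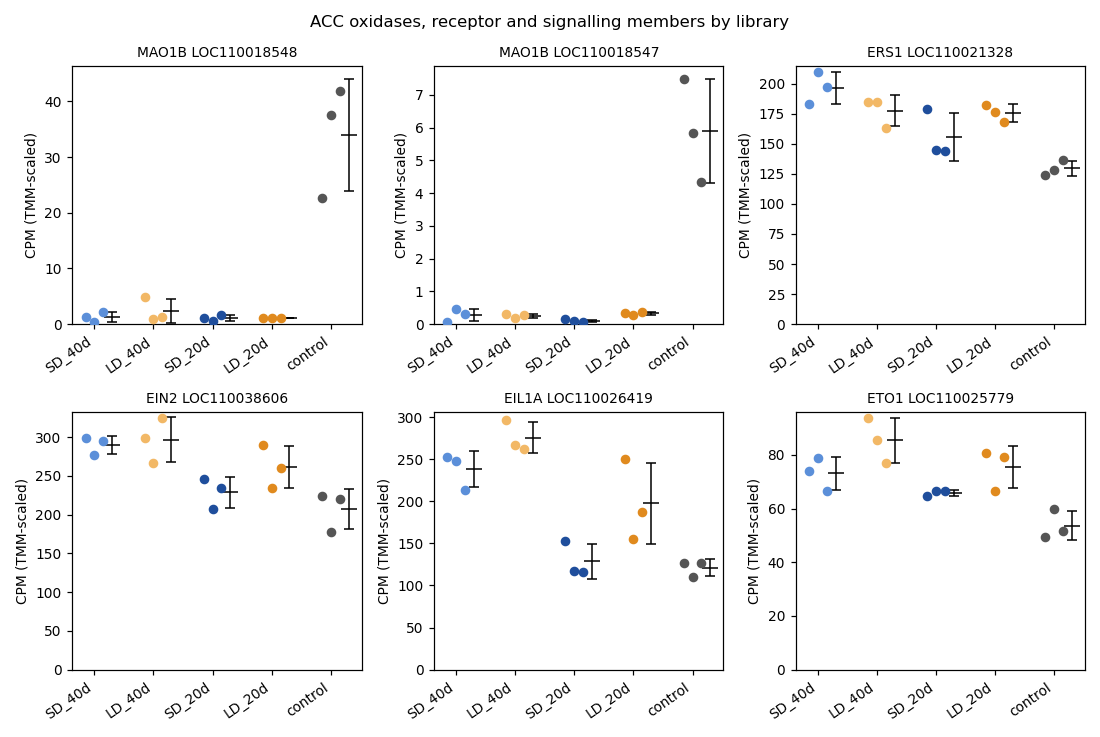
CPM in each library (points, replicates 1 to 3 from left to right) of 2 ACC oxidases, the receptor ERS1, EIN2, an EIN3-like factor and ETO1, by group along the x axis, with a dash for the mean and a bar of 1 SD each way. Both oxidases stay under 5 CPM in the 12 treated libraries and reach 41.8 and 7.50 CPM in the control, while the other 4 genes lie lowest in the control.

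Genes of the pathway that the annotation words do not reach were also more often higher than lower. Of 7 loci for CTR1, the kinase that holds the pathway off in Arabidopsis, and EBF1, an F-box protein that removes EIN3 there, 6 rose in SD_40d, 3 in LD_40d, 5 in SD_20d and 3 in LD_20d against the control, and 1 fell, in SD_20d. Of all genes tested 18.8%, 13.9%, 17.2% and 11.4% were called higher in that order. CTR1 LOC110037039 rose in all 4 groups, by 0.52 ± 0.13 in SD_40d, 0.68 ± 0.13 in LD_40d, 0.56 ± 0.13 in SD_20d and 0.50 ± 0.13 in LD_20d (edgeR adjusted p = 0.00166 to 0.0109). The fall was that of CTR1 LOC110020120 (-0.26 ± 0.09, adjusted p = 0.0404).

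Among the ERF factors, the control leaves held the most transcript by group mean. Summed over the 76 loci, the FPKM came to 1125 ± 148 in SD_40d and 1313 ± 333 in LD_40d. At 20 days it was 758 ± 104 in SD_20d and 850.5 ± 67.7 in LD_20d, against 1665 ± 166 in the control (SD, n = 3 libraries each). LD_40d overlapped the control, with replicate 3 at 1584.5 FPKM and control replicate 2 at 1479.8 FPKM. Of the 43 ERF factors tested, 28 had their highest group mean in the control (65.1%, beside 26.8% of all genes tested), and 18 had their lowest in SD_20d (41.9%, beside 25% of all genes). Against the control 3 rose and 14 fell in SD_40d, and 7 rose and 11 fell in LD_40d. At 20 days 3 rose and 24 fell in SD_20d, and 2 rose and 23 fell in LD_20d. In that order 6.98%, 16.3%, 6.98% and 4.65% of the 43 rose, beside 18.8%, 13.9%, 17.2% and 11.4% of all genes tested. Falls were 32.6%, 25.6%, 55.8% and 53.5% of the 43, beside 19.5%, 13.6%, 17.9% and 12.6%. Of these 43, 6 passed the filter only through the control, and all 6 had their highest mean there. This bears on the counts and shares of falls and of highest means, and on the median change that follows. No ERF value without these 6 is given. The median log2 change of the 43 was -1.0, -0.64, -1.52 and -1.42 in the same order, beside -0.05 to 0.02 over all genes. The heat map of centred levels shows the control columns red for most factors, and a smaller set at the bottom that ran the other way.

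Markers of the leaf and of other states moved as well. Each list was taken by words in the annotation, and some loci share only letters with its name. The senescence list also holds loci matched to SHOOT GRAVITROPISM 6 (SGR6), phospholipase SGR2 and the ligase SGR9. A calcyclin-binding protein and TOPBP1 are in the dividing-tissue list, and many loci of the wound and jasmonate list are matched to 9S-lipoxygenases. The sums therefore describe these word lists. The summed CPM of 18 leaf markers (Rubisco, antenna proteins and PEP carboxylase, all tested) was 32608 to 36378 in SD_40d, 20901 to 28755 in LD_40d, 19830.0 to 25186 in SD_20d, 13291 to 21566 in LD_20d, against 57229 to 71359 in the control. That of 43 dividing-tissue markers (32 tested, 2 with no count) was 664 to 1052 in SD_40d, 954 to 1056 in LD_40d, 1892 to 2633 in SD_20d, 1220.4 to 1927 in LD_20d, against 1141 to 1692 in the control. For 26 wound and jasmonate markers (20 tested, 1 with no count) it was 3559 to 4478 in SD_40d, 3416 to 5959 in LD_40d, 5746 to 6212 in SD_20d, 5959 to 7778 in LD_20d, against 5291 to 8870.5 in the control. The leaf markers were thus highest in the control, as the ERF factors were by group mean. The dividing-tissue markers were highest in SD_20d, and the wound markers of the control overlapped LD_40d and both 20-day groups. Sums over 24 heat shock markers (19 tested, 3 with no count) were 10794 to 16588 in SD_40d, 8228 to 10002 in LD_40d, 5912 to 7795 in SD_20d, 7662 to 8811 in LD_20d, against 8834 to 11799 in the control. Those over 17 senescence markers (14 tested, 2 with no count) were 869 to 1189 in SD_40d, 972 to 1184 in LD_40d, 562 to 649 in SD_20d, 698 to 898 in LD_20d, against 846 to 973 in the control, and those over 35 genes with floral organ words (9 tested, 8 with no count) were 34.6 to 54.3 in SD_40d, 29.8 to 38.4 in LD_40d, 45.0 to 50.6 in SD_20d, 33.5 to 37.8 in LD_20d, against 31.6 to 36.6 in the control. The part of any of these in the changes of the ERF factors was not tested.

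**Figure D3:**
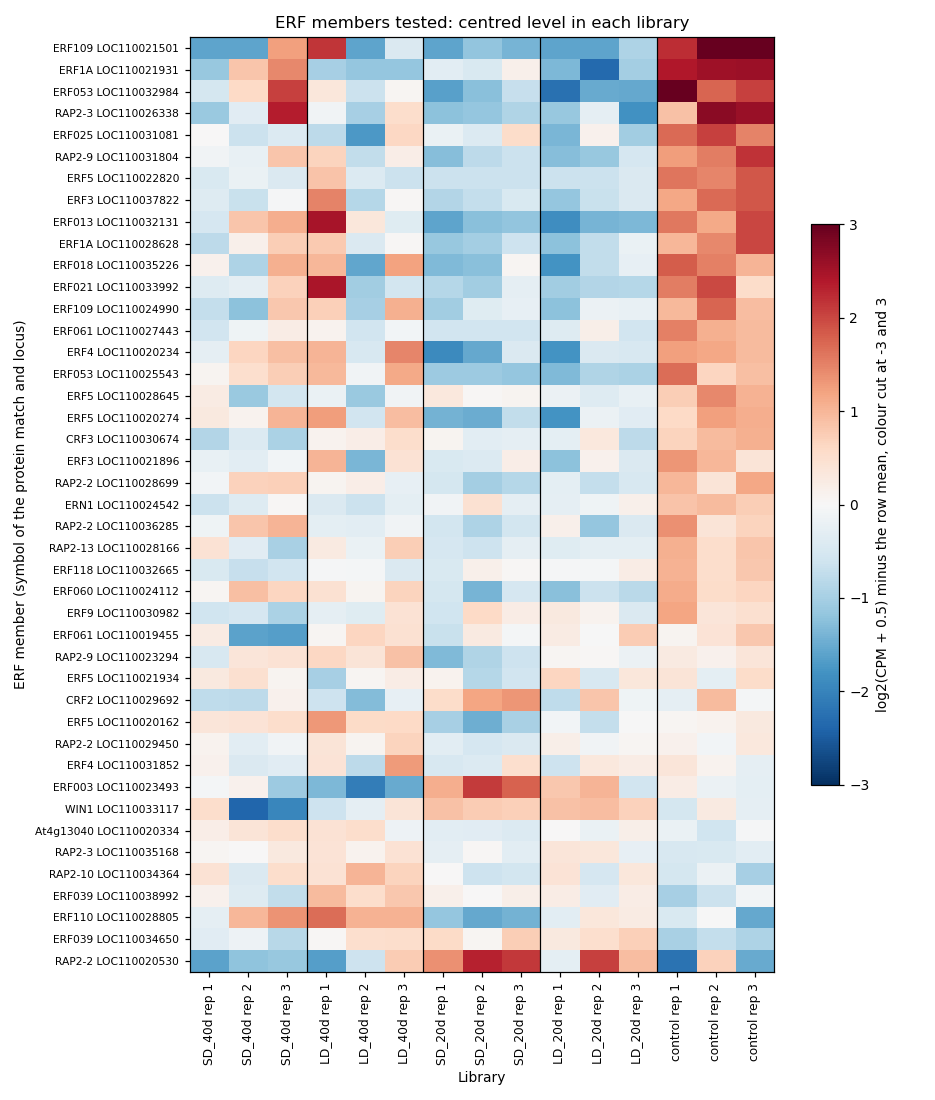
Each line is 1 of the 43 ERF factors tested and each column a library, grouped as SD_40d, LD_40d, SD_20d, LD_20d and control. Colour gives log2(CPM + 0.5) minus the mean of that gene over the 15 libraries, cut at -3 and 3. Genes are ordered by control minus treated mean. Of the 43, 28 had their highest group mean in the control, including every factor that passed the filter only through the control.

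ERF109 LOC110021501 (scaffold NW_018164576.1, 3619871 to 3620516, - strand) is matched to an Arabidopsis factor of redox and jasmonate responses. It had 0, 0 and 3.02 CPM in SD_40d, 6.09, 0 and 0.614 CPM in LD_40d, 0, 0.163 and 0.0712 CPM in SD_20d, 0, 0 and 0.294 CPM in LD_20d, against 6.44, 24.8 and 20.3 CPM in the control. In counts, the libraries held 0, 0 and 41 in SD_40d, 80, 0 and 9 in LD_40d, 0, 2 and 1 in SD_20d, and 0, 0 and 4 in LD_20d, against 79, 301 and 258 in the control. Only LD_40d replicate 1 came near the lowest control library, and SD_40d replicate 3 was the other treated library with more than 9 counts. Over the group, ERF109 was 229.98-fold lower in SD_20d than in the control, with a 95% counting interval of 78.3 to 1118, from 3 counts against 638. It fell in SD_20d, LD_20d and SD_40d (edgeR adjusted p = 0.00554, 0.00824 and 0.0277) and differed by -2.93 ± 1.22 in LD_40d (adjusted p = 0.092). ERF109 passed the filter only through the control, with 2 treated libraries at its limit. That most treated libraries were low was therefore set by that choice, and its fold changes and calls are a description. The counting interval covers counting error only and leaves out the spread between libraries. The SD_40d call was lost without SD_40d replicate 2, control replicate 2 or control replicate 3 (adjusted p up to 0.0873). In SD_40d it was also not called by DESeq2. The other ERF109 locus, LOC110024990, was not called.

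ERF1A LOC110021931 (scaffold NW_018164594.1, 1531259 to 1532488, + strand), matched to an Arabidopsis activator that binds the GCC box of defence genes, fell in all 4 groups. It had 1.60, 7.77 and 12.0 CPM in SD_40d, 1.83, 1.55 and 1.57 CPM in LD_40d, 3.17, 2.86 and 4.63 CPM in SD_20d, 1.32, 0.410 and 1.76 CPM in LD_20d, against 24.0, 26.3 and 26.7 CPM in the control. The control libraries lay close together and above all 12 treated ones, and among these SD_40d replicates 2 and 3 were highest. Its log2 fold changes were -1.85 ± 0.51 in SD_40d, -3.95 ± 0.58 in LD_40d, -2.85 ± 0.54 in SD_20d and -4.46 ± 0.60 in LD_20d (edgeR adjusted p = 0.000207 to 0.0121), and each call held with any 1 library left out, while the SD_40d call was lost in a fit of SD_40d and control libraries alone. ERF1A LOC110028628 fell in all 4 as well, with log2 changes of -1.38, -1.33, -2.47 and -2.23 in that order (adjusted p = 0.000781 to 0.0268). Without SD_40d replicate 2 or control replicate 3 in SD_40d, and without LD_40d replicate 2, LD_40d replicate 3 or control replicate 3 in LD_40d, its calls there were lost (adjusted p up to 0.0712 and 0.106).

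ERF053 LOC110032984, matched to an Arabidopsis factor linked to drought, had 1.82, 4.57 and 13.4 CPM in SD_40d, 3.73, 1.64 and 3.00 CPM in LD_40d, 0.577, 0.897 and 1.57 CPM in SD_20d, 0.209, 0.683 and 0.660 CPM in LD_20d, against 30.7, 10.7 and 13.3 CPM in the control. All 6 libraries of day 20 were at 1.57 CPM or less, and SD_40d replicate 3 overlapped the control. ERF053 fell, with log2 changes of -2.70 ± 0.65 in LD_40d, -4.15 ± 0.71 in SD_20d and -5.12 ± 0.77 in LD_20d (edgeR adjusted p = 0.000466 to 0.00792), and differed by -1.46 ± 0.61 in SD_40d (adjusted p = 0.073). RAP2-3 LOC110026338, matched to a member of the Arabidopsis group of ERF factors that respond to low oxygen, had 0.437, 1.10 and 9.88 CPM in SD_40d, 1.37, 0.516 and 2.39 CPM in LD_40d, 0.361, 0.408 and 0.570 CPM in SD_20d, 0.418, 1.16 and 0.0734 CPM in LD_20d, against 3.18, 12.6 and 11.7 CPM in the control. It fell at 20 days, with log2 fold changes of -4.33 ± 1.09 in SD_20d and -4.02 ± 1.06 in LD_20d (adjusted p = 0.00817 and 0.0147), and was not called at 40 days. The LD_20d call was lost without LD_20d replicate 1 or replicate 3 (adjusted p up to 0.0548).

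The ERF factor with the most transcript per length was RAP2-2 LOC110028699 (scaffold NW_018164962.1, 108429 to 112020, - strand), with 24.9% of the summed ERF FPKM and a match in the same low-oxygen group. It had 384, 667 and 667 CPM in SD_40d, 431, 471 and 348 CPM in LD_40d, 285, 203 and 225 CPM in SD_20d, 332, 248 and 294 CPM in LD_20d, against 822, 532 and 917 CPM in the control. Both 20-day groups lay below the control without overlap, and SD_40d replicates 2 and 3 reached into the control range. RAP2-2 fell, with log2 changes of -0.86 ± 0.24 in LD_40d, -1.67 ± 0.25 in SD_20d and -1.38 ± 0.24 in LD_20d (edgeR adjusted p = 0.0182, 0.000285 and 0.00146), and differed by -0.40 ± 0.24 in SD_40d (adjusted p = 0.202). The LD_40d call was lost without LD_40d replicate 3, control replicate 1 or control replicate 3 (adjusted p up to 0.0726). ERF4 LOC110020234, matched to a tobacco factor and second in FPKM, had 126, 240.2 and 287 CPM in SD_40d, 312, 110.1 and 426 CPM in LD_40d, 40.5, 52.5 and 113 CPM in SD_20d, 43.6, 114 and 109 CPM in LD_20d, against 359.8, 342 and 294 CPM in the control. It fell, with log2 changes of -2.27 ± 0.52 in SD_20d and -1.90 ± 0.51 in LD_20d (adjusted p = 0.00464 and 0.0164), the LD_20d call not without LD_20d replicate 1 (adjusted p = 0.0581), and overlapped the control in LD_40d.

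ERF3 LOC110037822, matched to a tobacco repressor, had 44.4, 36.5 and 56.0 CPM in SD_40d, 162, 31.5 and 59.1 CPM in LD_40d, 31.0, 35.3 and 41.7 CPM in SD_20d, 25.6, 36.5 and 43.0 CPM in LD_20d, against 129.6, 190.3 and 212 CPM in the control. LD_40d replicate 1 overlapped the control, and the other 11 treated libraries lay below it. ERF3 fell, with log2 changes of -1.96 ± 0.45 in SD_40d, -2.30 ± 0.45 in SD_20d and -2.34 ± 0.45 in LD_20d (edgeR adjusted p = 0.00185 to 0.00424). CRF3 LOC110030674, matched to a cytokinin response factor of Arabidopsis, fell, with a log2 change of -2.12 ± 0.39 in SD_40d (adjusted p = 0.00113), with 0.729, 1.19 and 0.664 CPM in SD_40d, against 3.097, 3.87 and 4.25 CPM in the control. ERF013 LOC110032131 had 1.31, 4.12 and 5.01 CPM in SD_40d, 13.9, 2.75 and 1.5002 CPM in LD_40d, 0.361, 0.571 and 0.641 CPM in SD_20d, 0.209, 0.478 and 0.514 CPM in LD_20d, against 7.17, 5.18 and 9.83 CPM in the control. At 20 days it was 14.1-fold lower in SD_20d and 18.5-fold lower in LD_20d than in the control (adjusted p = 0.00279 and 0.00268), while at 40 days SD_40d lay just below the control, LD_40d overlapped it and neither was called.

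Some ERF loci were at or near 0 counts in some of the treated groups. Both described here passed the filter only through the control, where they are high, so their sizes are a description. ERF5 LOC110022820 had no count in SD_20d and 73 counts in the control. Taking 3 counts as the most that a group without counts allows, it was at least 26.3-fold lower. In LD_20d it had 1 count, a ratio of 83.8-fold lower with a 95% counting interval of 14.6 to 3354. At 40 days it had 1, 2 and 1 counts in SD_40d and 12, 1 and 0 in LD_40d. The control libraries held 23, 20 and 30. ERF061 LOC110027443 had no count in SD_20d and 45 in the control, at least 16.2-fold lower. Its libraries held 0, 2 and 5 counts in SD_40d, 4, 0 and 3 in LD_40d, and 1, 5 and 0 in LD_20d. Counting intervals and floors cover counting error only and leave out the spread between libraries. PCR copies are not independent molecules, so even that error may be understated.

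**Figure D4:**
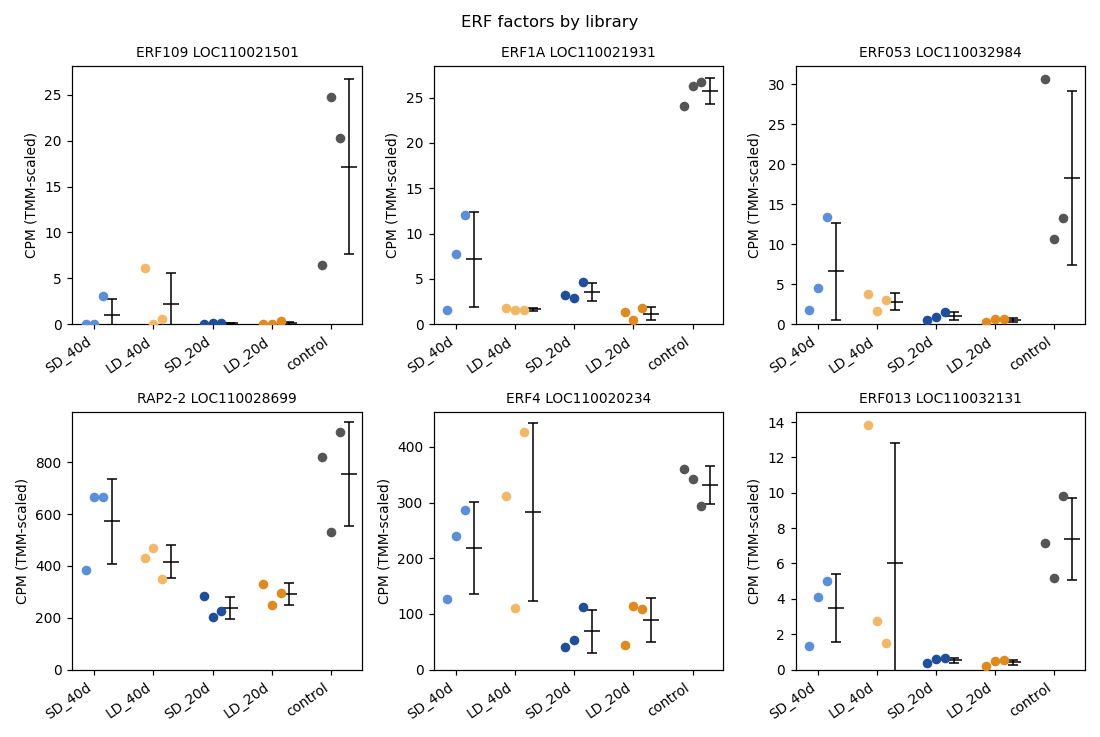
CPM in each library (points, replicates 1 to 3 from left to right) of 6 ERF factors by group, with a dash for the mean and a bar of 1 SD each way, cut at 0. The 20-day libraries lie below the control for all 6, and the 40-day libraries spread more widely, with LD_40d replicate 1 of ERF013 at 13.9 CPM.

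A smaller set of ERF factors rose against the control. ERF039 LOC110034650 had 1.53, 1.83 and 0.959 CPM in SD_40d, 2.13, 3.18 and 3.205 CPM in LD_40d, 3.32, 2.20 and 3.77 CPM in SD_20d, 2.65, 3.14 and 3.74 CPM in LD_20d, against 0.815, 1.07 and 0.865 CPM in the control. SD_40d overlapped the control through replicate 3, and the other treated groups lay above it. It rose by 1.62 ± 0.33 in LD_40d, 1.75 ± 0.33 in SD_20d and 1.78 ± 0.33 in LD_20d (edgeR adjusted p = 0.00146 to 0.00309), and differed by 0.64 ± 0.34 in SD_40d (adjusted p = 0.156). ERF039 LOC110038992, another locus with that match, rose by 1.61 ± 0.38 in LD_40d (adjusted p = 0.00706), with 4.26, 3.01 and 3.82 CPM in LD_40d, against 0.734, 1.07 and 1.81 CPM in the control.

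ERF110 LOC110028805 had 1.09, 3.29 and 4.35 CPM in SD_40d, 5.63, 3.44 and 3.41 CPM in LD_40d, 0.361, 0.163 and 0.214 CPM in SD_20d, 1.05, 1.91 and 1.76 CPM in LD_20d, against 0.897, 1.40 and 0.157 CPM in the control. LD_40d lay above the control without overlap, SD_40d overlapped it through replicate 1, and the SD_20d libraries were at its lower end. ERF110 rose by 2.34 ± 0.60 in LD_40d and by 1.83 ± 0.61 in SD_40d (edgeR adjusted p = 0.0116 and 0.0296), the SD_40d call being lost without SD_40d replicate 2, SD_40d replicate 3, control replicate 1 or control replicate 3 (adjusted p up to 0.125). At 20 days the locus RAP2-2 LOC110020530 stood out, with 3.14, 4.30 and 4.50 CPM in SD_40d, 3.04, 6.71 and 18.1 CPM in LD_40d, 28.3, 54.7 and 47.4 CPM in SD_20d, 8.58, 45.6 and 20.7 CPM in LD_20d, against 1.87, 17.3 and 3.38 CPM in the control. Control replicate 2 lay well above the other control libraries and below the SD_20d libraries. It rose by 2.53 ± 0.79 in SD_20d (adjusted p = 0.0238), not without SD_20d replicate 2, SD_20d replicate 3, control replicate 1 or control replicate 3 (adjusted p up to 0.0885).

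The locus ERF003 LOC110023493 went both ways against the control, up in SD_20d (1.99 ± 0.50, edgeR adjusted p = 0.00837) and down in LD_40d (-2.33 ± 0.61, adjusted p = 0.0128), the fall not without LD_40d replicate 2 (adjusted p = 0.0527). RAP2-3 LOC110035168 rose by 0.55 ± 0.17 in SD_40d, 0.76 ± 0.17 in LD_40d and 0.61 ± 0.17 in LD_20d (adjusted p = 0.00497 to 0.0188). The SD_40d call was lost without SD_40d replicate 3, control replicate 1 or control replicate 2, and the LD_20d call without LD_20d replicate 1, LD_20d replicate 2, control replicate 1 or control replicate 2 (adjusted p up to 0.0755). At4g13040 LOC110020334 rose by 0.64 ± 0.18 in SD_40d (adjusted p = 0.013), not without SD_40d replicate 3 or control replicate 2 (adjusted p up to 0.0611).

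Between 20 and 40 days of treatment, more members were higher at 40 days than lower. In SD_40d against SD_20d 20 rose and 8 fell (40.7% of all genes were called, 20.1% higher and 20.7% lower). The share called, 40.6% of the 69 tested, was close to that of all genes, with more of the calls higher. Without SD_20d replicate 2 the count was 14, without SD_40d replicate 2 it was 18, and without SD_40d replicate 3 it was 15. Of the 43 ERF factors tested, 14 rose and 5 fell in SD_40d, and their median log2 change was 0.85, or 0.73 with genes without counts set at their bound. In LD_40d against LD_20d 4 rose and 1 fell (5.16% called, 2.17% higher and 2.99% lower), which is 7.25% of the 69, all 5 of them ERF factors. The count there was 0 without LD_20d replicate 2 or without LD_40d replicate 1, 1 without LD_20d replicate 3 and 10 without LD_40d replicate 3.

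Within SD, ERF110 LOC110028805 had 1.09, 3.29 and 4.35 CPM in SD_40d, against 0.361, 0.163 and 0.214 CPM in SD_20d, and it rose by 3.50 ± 0.70 (edgeR adjusted p = 0.00211). ERF053 LOC110032984 rose by 2.69 ± 0.70 (adjusted p = 0.00869), not without SD_40d replicate 3 (adjusted p = 0.0662), and ERF013 LOC110032131 rose by 2.71 ± 0.80 (adjusted p = 0.0166), not without SD_40d replicate 3, SD_20d replicate 1 or SD_20d replicate 2 (adjusted p up to 0.063). RAP2-2 LOC110028699 rose by 1.27 ± 0.24 (adjusted p = 0.00182) and ERF060 LOC110024112 by 1.33 ± 0.28 (adjusted p = 0.00259), and EIL1A LOC110026419 rose by 0.89 ± 0.16 (adjusted p = 0.00143). RAP2-3 LOC110026338 rose by 3.07 ± 1.09 (adjusted p = 0.0377), with the groups overlapping and SD_40d replicate 3 at 9.88 CPM far above the other 5 libraries. The call was lost without that library or without any of the SD_20d libraries (adjusted p up to 0.593).

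Falls within SD were led by RAP2-2 LOC110020530, with 3.14, 4.30 and 4.50 CPM in SD_40d, against 28.3, 54.7 and 47.4 CPM in SD_20d and no overlap (-3.45 ± 0.83, edgeR adjusted p = 0.00588). ERF003 LOC110023493 fell, with a log2 change of -2.23 ± 0.51 (adjusted p = 0.00445). ERF039 LOC110034650 fell, with a log2 change of -1.11 ± 0.32 (adjusted p = 0.0139), not without SD_40d replicate 3 or SD_20d replicate 3 (adjusted p up to 0.0663). CRF2 LOC110029692, matched to another cytokinin response factor, fell, with a log2 change of -1.65 ± 0.53 (adjusted p = 0.0238), not without SD_40d replicate 1, SD_40d replicate 2, SD_20d replicate 2 or SD_20d replicate 3 (adjusted p up to 0.0876).

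Within LD, the 4 factors that rose were ERF013 LOC110032131 (3.89 ± 0.82), ERF053 LOC110025543 (1.87 ± 0.33), ERF060 LOC110024112 (1.32 ± 0.28) and ERF5 LOC110020162 (1.11 ± 0.22), with edgeR adjusted p = 0.0237 to 0.031. ERF053 LOC110025543 had 35.7, 16.6 and 39.8 CPM in LD_40d, against 6.83, 9.35 and 8.95 CPM in LD_20d, and ERF060 had 69.6, 53.6 and 81.3 CPM in LD_40d, against 21.1, 32.2 and 28.5 CPM in LD_20d. In both the groups did not overlap. ERF003 LOC110023493 was the fall (-3.07 ± 0.60, adjusted p = 0.026), with 0.609, 0.172 and 0.477 CPM in LD_40d, against 4.39, 5.19 and 1.39 CPM in LD_20d. Each of these 5 calls was lost in 3 of the 6 fits that left out a library of the pair, with adjusted p up to 0.135 for ERF013.

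Short against long photoperiod gave few differences. Only the edgeR counts from all libraries have the share of all genes beside them. Counts by unadjusted p, by DESeq2 or with a library left out have none, and are not a result about the members. At 20 days 0 members were called by edgeR's quasi-likelihood test (0.862% of all genes were), 12 of the 69 had an unadjusted p under 0.05, and DESeq2 called 5, all lower in SD_20d. At 40 days 0 were called (0.461% of all genes), 10 had an unadjusted p under 0.05, and DESeq2 called 3. Without LD_20d replicate 2 edgeR called 3 members at 20 days, and without SD_40d replicate 1 it called 7 at 40 days. Over the mean of both ages 2 members were higher and 4 lower under SD (8.70% of the 69 were called, beside 4.23% of all genes, 1.28% higher and 2.95% lower). The interaction of photoperiod and age called 0 members with edgeR and 0 with DESeq2 (0% of all genes by edgeR), 7 members had an unadjusted p under 0.05, and edgeR called 2 without SD_40d replicate 1.

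The members higher under SD over both ages were both ERF factors. ERF1A LOC110021931 had 1.60, 7.77 and 12.0 CPM in SD_40d, against 1.83, 1.55 and 1.57 CPM in LD_40d, and at 20 days 3.17, 2.86 and 4.63 CPM in SD_20d, against 1.32, 0.410 and 1.76 CPM in LD_20d. SD_40d replicate 1 was as low as the LD_40d libraries, and the 20-day groups did not overlap. The mean difference was 1.86 ± 0.41 (edgeR adjusted p = 0.0254), beside 2.11 ± 0.56 for SD_40d against LD_40d and 1.61 ± 0.59 for SD_20d against LD_20d (adjusted p = 0.111 and 0.19). ERF003 LOC110023493 had 2.19, 2.56 and 0.811 CPM in SD_40d, against 0.609, 0.172 and 0.477 CPM in LD_40d, and at 20 days 5.48, 11.502 and 9.12 CPM in SD_20d, against 4.39, 5.19 and 1.39 CPM in LD_20d, with no overlap at either age and a mean difference of 1.66 ± 0.39 (adjusted p = 0.0316).

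Of the 4 members lower under SD, 3 are ERF factors. ERF5 LOC110020162, which lies 5.7 kb from another ERF5 locus, had 36.3, 37.3 and 40.3 CPM in SD_40d, against 69.2, 41.5 and 42.6 CPM in LD_40d, and at 20 days 13.6, 9.87 and 14.0 CPM in SD_20d, against 26.5, 16.9 and 27.7 CPM in LD_20d. The SD libraries were lower without overlap at both ages, and the mean difference was -0.68 ± 0.15 (edgeR adjusted p = 0.0286). RAP2-9 LOC110023294, matched to a DREB-type factor of Arabidopsis, had 8.53, 15.6 and 16.4 CPM in SD_40d, against 18.8, 15.9 and 22.5 CPM in LD_40d, and at 20 days 4.55, 6.20 and 7.62 CPM in SD_20d, against 12.6, 12.4 and 10.6 CPM in LD_20d. The 40-day groups overlapped and the 20-day groups did not, and the mean difference was -0.72 ± 0.17 (adjusted p = 0.0321). RAP2-2 LOC110029450 differed by -0.48 ± 0.11 (adjusted p = 0.0287), with 93.8, 82.0 and 86.4 CPM in SD_20d, against 131, 108 and 122 CPM in LD_20d, at 20 days.

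The remaining call was LOC110027956, a carboxymethylenebutenolidase by its match, whose name holds the word only inside methylene (-0.73 ± 0.18, edgeR adjusted p = 0.0398). Each of the 6 calls of the mean was lost in 6 to 8 of the 12 fits that left out 1 library. The count fell to 0 without LD_20d replicate 1 or SD_40d replicate 2, to 1 without LD_20d replicate 3, LD_40d replicate 1, SD_20d replicate 2 or SD_20d replicate 3, to 2 without SD_40d replicate 3 and to 3 without LD_40d replicate 2, and it was 12 without SD_40d replicate 1.

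With 0 calls at 20 days, the smallest p-values were those of ERF5 LOC110020162 (-0.92 ± 0.22, edgeR adjusted p = 0.0711), LOC110027956 (-1.08 ± 0.26, 0.0718), RAP2-9 LOC110023294 (-0.95 ± 0.25, 0.0847) and EIL1A LOC110026419 (-0.62 ± 0.16, 0.0856). EIL1A LOC110026419 had 153, 117 and 116 CPM in SD_20d, against 250.2, 155 and 187 CPM in LD_20d, without overlap. At 40 days they were those of ERF1A LOC110021931, CRF3 LOC110030674 (-1.38 ± 0.39, adjusted p = 0.128), ERF039 LOC110038992 (-1.29 ± 0.37, 0.131) and ERF003 LOC110023493 (2.08 ± 0.62, 0.139). The ACC oxidase LOC110018548 differed by -0.88 ± 0.62 at 40 days and by 0.01 ± 0.66 at 20 days between SD and LD (adjusted p = 0.529 and 0.998).

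**Figure D5:**
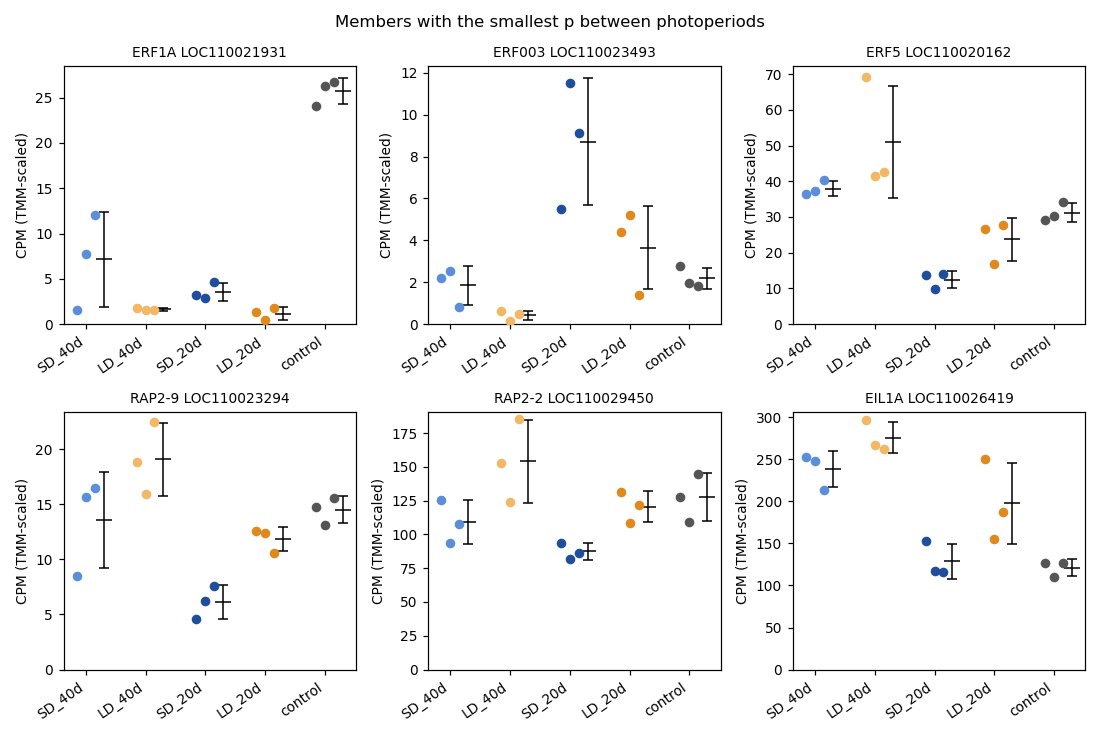
CPM in each library (points, replicates 1 to 3 from left to right) of 5 ERF factors called in SD against LD over both ages and of the EIN3-like factor EIL1A LOC110026419, by group, with a dash for the mean and a bar of 1 SD each way. ERF1A and ERF003 lie higher under SD at each age by their means, and ERF5, RAP2-9, RAP2-2 and EIL1A lie lower, while at 40 days ERF1A, RAP2-9 and RAP2-2 overlap between photoperiods.

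Members that share only words with the pathway were kept apart. The ACC oxidase homolog LOC110024663, matched to an Arabidopsis dioxygenase, had 93.5% of the summed FPKM of its 5 loci and fell in all 4 groups against the control, with log2 changes of -0.55 in SD_40d, -0.63 in LD_40d, -0.86 in SD_20d and -0.68 in LD_20d, each ± 0.11 (edgeR adjusted p = 0.00012 to 0.00187). EER5 LOC110023062 fell, with a log2 change of -0.50 ± 0.15 in SD_40d (adjusted p = 0.0206), not without SD_40d replicate 2, SD_40d replicate 3, control replicate 1 or control replicate 3 (adjusted p up to 0.0879). Of the 8 methylene entries 7 were tested. Against the control 2 fell in SD_40d, 3 in LD_40d, 3 in SD_20d and 2 in LD_20d. These are 28.6%, 42.9%, 42.9% and 28.6% of the 7, beside 19.5%, 13.6%, 17.9% and 12.6% of all genes tested. With so few loci, the shares rest on 2 or 3 genes each. The sterol methyltransferase match Smt2-1 LOC110021793 was among the falls in all 4, from -1.72 ± 0.21 in SD_40d to -0.62 ± 0.20 in SD_20d (adjusted p = 6.58e-05 to 0.0279).

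The 45 members that were not tested had at most 37 counts in any library. That count is of WRI1 LOC110027014, with 9, 35 and 37 counts in SD_40d and 7, 7 and 5 in LD_40d, against 0, 0 and 1 in SD_20d, 2, 0 and 1 in LD_20d and 5, 0 and 2 in the control. The SD_40d libraries lay above all others of the locus, and no test of it is given. They comprise 33 ERF factors, 6 ACC synthases, 4 ACC oxidases, 1 oxidase homolog and 1 methylene entry. The ERF factors without any count, 10 in all, include 3 loci matched to the rice panicle factor FZP.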

How the data were processed

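RNA-seq read counts and FPKM of 21144 loci in 15 libraries were deposited by the authors in a single table, with gene length and positions per the file headers. The submitters' processing notes list DESeq 1.30.0, HTSeq 0.9.1, HISAT2 2.0.5 and cutadapt 1.15 with no role stated, and the genome build and strand setting are not given in the sources used here. The deposited FPKM equalled counts divided by gene length and by the summed counts, within 0.5 reads, for all 114 members, and served for levels compared between genes.

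Counts were fitted in R 4.3.3 with edgeR 4.0.16 (limma 3.58.1), using TMM scaling, filterByExpr and 1 quasi-likelihood fit to all 15 libraries. This left 16700 genes and 69 members, with Benjamini-Hochberg adjustment over the genes of each of 10 comparisons. The standard error is the log2 fold change divided by the square root of F. Alternatives were RLE scaling, no filter, DESeq2 1.42.0, a fit of the compared groups alone, a replicate block and each library left out. The fit was tested on simulated data. A floor of 3 counts over a group and exact 95% intervals were used for genes near 0.

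Members and gene lists were chosen with earlier results of these data known, and the methylene entries were set apart after the annotation was read. Named are all members called in SD against LD, or the 4 with the smallest p where fewer were called. In the other comparisons they are the 4 steepest rises and falls among called members with a mean log2 CPM of at least 1. The most abundant member of each role, ERF109 and the tested synthesis, receptor, EIN2 and EIN3-like genes were added, as were further genes chosen after their values were seen. No sequence or promoter is shown, since none was used here. Results for 1 item withheld from this text are not reported here.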

Additional observations from a re-analysis of the deposited data

How the results depend on the processing

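No alternative fit turned the direction of any of the 59 named fold changes. Of these fits 567 stayed on the same side of the threshold, 106 lost their call and 12 gained one. The count of members called was within 1.5 times of that given under RLE scaling and without the filter in all 10 comparisons. DESeq2 called 5 members in SD_20d against LD_20d, 3 in SD_40d against LD_40d and 13 in LD_40d against LD_20d. A fit of the compared groups alone called 3 in the mean of SD against LD and 1 in LD_40d against LD_20d. The cause was not tested, and no share of all genes is given for these alternative fits.

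With each library left out in turn, the counts ran from 0 to 7 for SD_40d against LD_40d, 0 to 3 for SD_20d against LD_20d, 0 to 12 for their mean and 0 to 2 for the interaction. Against the control they ran from 18 to 28 in SD_40d, 22 to 32 in LD_40d, 29 to 33 in SD_20d and 24 to 31 in LD_20d. Between ages they ran from 14 to 34 within SD and 0 to 10 within LD.

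Replicate numbers did not pair the libraries over all 5 groups. Same-numbered libraries correlated at -0.2855 to 0.3645, and 9 of 30 pairs passed 0.1. Among SD_20d, LD_20d and control, replicates 1 and 2 correlated with their own number at 0.176 to 0.3645. Across these 2 numbers they correlated at -0.323 to -0.1225, and replicate 3 with its own number at -0.0955 to 0.0719. Whether a number marks a shared batch is not stated, so some pairing among these 3 groups remains possible. A replicate block gave 0 members in SD_40d against LD_40d, 0 in SD_20d against LD_20d, 6 in their mean and 0 in the interaction. Against the control the block gave 27 in SD_40d, 30 in LD_40d, 33 in SD_20d and 35 in LD_20d, and between ages 27 within SD and 4 within LD. Depth limits the members near 0 counts to the counts and bounds given.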

Other observations

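ERF factors had a larger median spread between the libraries of a group than all genes tested, a difference that was not tested. Over the 19 with a mean log2 CPM of at least 2, the median SD of log2(CPM + 0.5) within a group was 0.31 in SD_40d, 0.47 in LD_40d, 0.27 in SD_20d and 0.34 in LD_20d, against 0.30 in the control. Over 13683 genes at that level it was 0.21, 0.18, 0.13, 0.16 and 0.17 in the same order. LD_40d replicate 2 was the lowest of its group for 30 of 43 ERF factors (69.8%, beside 30.5% of all genes tested), and SD_40d replicate 3 was the highest of its group for 61.9% of them (31.2% of all genes). WIN1 LOC110033117, matched to an Arabidopsis inducer of wax and cutin synthesis, had 7.29, 0.549 and 0.885 CPM in SD_40d, 3.04, 3.96 and 6.55 CPM in LD_40d, 9.53, 8.65 and 8.33 CPM in SD_20d, 9.41, 9.83 and 8.22 CPM in LD_20d, against 3.26, 6.01 and 4.01 CPM in the control. SD_40d replicate 1 lay in the range of the other groups, and replicates 2 and 3 lay below every other library.

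The nearest relatives of the ERF factors, the dehydration element factors (DREB), also bind DNA through an AP2 domain, and 11 of 13 loci were tested. Against the control 2 rose in SD_40d (38.3% of all genes were called, 18.8% higher) and 1 rose in LD_40d (27.5% called, 13.9% higher), so neither count stands above the share of all genes. At 20 days 2 rose and 4 fell in SD_20d (17.2% of all genes were called higher and 17.9% lower), and 1 rose and 5 fell in LD_20d (11.4% higher and 12.6% lower). Between ages 5 rose and 1 fell in SD_40d against SD_20d, where 20.1% of all genes were called higher and 20.7% lower. DREB2A LOC110026555, matched to an Arabidopsis activator of drought and heat genes, fell at 20 days, with log2 fold changes of -1.03 ± 0.28 in SD_20d and -1.43 ± 0.28 in LD_20d (edgeR adjusted p = 0.012 and 0.00276). DREB3 LOC110030261 rose by 0.78 ± 0.23 in SD_20d and by 1.07 ± 0.23 in LD_20d (adjusted p = 0.0167 and 0.00443).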
